A study of Danio rerio with 3 samples.

Results

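The ATP-binding cassette (ABC) transporter genes were examined in the kidney, the blood-forming organ of adult zebrafish, from which cells were sorted by 2 fluorescent reporters. The sorted populations were *gata2a*+ *runx1*+ (both reporters), *gata2a*- *runx1*+ (mCherry alone), and *gata2a*+ *runx1*- (GFP alone), and values of the 3 libraries are given in this order wherever no other is stated. Members were all genes whose symbol began with abc, a subfamily letter from A to G, and a number, which gave 52 of the 32057 genes in the deposited files. These were 9 genes of subfamily A, 10 of B, 14 of C, 5 of D, 1 of E, 4 of F, and 9 of G. All fish were labelled wild type and carried 2 transgenes, *gata2a:GFP*, which also labels vascular endothelium, and *runx1:mCherry*, which is driven by an enhancer of the mouse *Runx1* gene and so reports that enhancer and not the endogenous gene. Erythrocytes were removed, and only cells of low side scatter, called non-granulocytic by the authors, were sorted. The gates therefore differ only in the 2 reporters. Each population gave 1 library, and the sources used here do not state how many fish or cells went into it. No comparison below therefore has a replicate check: intervals and p-values cover counting error between libraries and not the spread between fish or sorts.

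ABC proteins bind and hydrolyse ATP at a pair of nucleotide-binding domains, and most of them use it to move a substrate across a membrane, such as a sterol, a phospholipid, a bile salt, a drug conjugate, a peptide, or a heme precursor. Members of subfamilies E and F keep the nucleotide-binding domains but have no membrane domain and act on the ribosome. In blood the family is best known from mammals for 3 tasks: efflux of dyes and drugs by ABCG2 in the side population, a fraction of mouse bone marrow rich in stem cells, export of cholesterol by ABCA1 and ABCG1, and the supply of heme by mitochondrial members of subfamily B during red cell formation.

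Between 8094670 and 8205803 reads per library were counted on genes, and 3 reads, the floor used here for a library without reads, were 0.366 to 0.371 RPM (reads relative to all reads counted on genes in the library). The 95% Wilson interval of 0 reads reaches somewhat higher, to 0.468 to 0.475 RPM, so folds given as at least a value hold against 3 reads and would be smaller against that limit. The reporter gene *gata2a* itself was at 344, 11.8, and 1354 RPM, whereas *runx1* was at 4.80, 3.53, and 2.35 RPM. Summed over the erythroid marker list, of which 7, 7, and 3 of 9 genes had over 3 reads, the level was 336, 2878, and 31.7 RPM. Without its most read gene, SLC4A1 (ENSDARG00000012881), it was 68.9, 415, and 27.5 RPM. GYPC of the same list had another order, at 8.37, 2.19, and 26.7 RPM. Over the B cell list, of which 2, 2, and 7 of 7 genes had over 3 reads, the level was 71.3, 13.4, and 2424 RPM, and 6.40, 2.19, and 400.6 RPM without ighm. The endothelial list was led by FLI1, which is also on the thrombocyte list, at 1489, 520, and 60.2 RPM, and with it summed to 1491, 520, and 165 RPM, lowest in the *gata2a*+ *runx1*- library. Without FLI1 it summed to 1.6, 0.366, and 104.8 RPM. Its defining markers *kdrl* and cdh5 had 0 and 2 reads in the *gata2a*+ *runx1*+ library, none in the *gata2a*- *runx1*+ library, and 693 and 119 in the *gata2a*+ *runx1*- library. Over the macrophage list, of which 8, 3, and 8 of 14 genes had over 3 reads, the level was 1390, 351, and 2439 RPM, nearly all of it from cd74a, and 24.0, 6.58, and 36.2 RPM without that gene. Some of its genes were instead highest in the *gata2a*+ *runx1*+ library. Examples are marco, at 16.99, 3.53, and 9.64 RPM, and an MFAP4 gene (ENSDARG00000111491), with 9, 0, and 0 reads. The neutrophil list, of which 3, 3, and 3 of 5 genes had over 3 reads, summed to 143, 221, and 58.2 RPM. Without EPX, its most read gene, it summed to 37.5, 6.70, and 7.91 RPM. In such bulk libraries fewer cells of a type and less RNA per cell cannot be told apart. Reads were not divided by gene length, so the level of a gene is comparable between libraries but not with that of another gene. Sums over genes, shares of reads, and rankings as more or most read can therefore also carry gene length.

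Of the 52 members, 25 had over 3 reads in all 3 libraries, 6 in 2 libraries, 11 in 1 library, and 10 had no read in any. The members without a read were one ABCB6 gene (ENSDARG00000063297), *abcb9*, *abcc6b.2*, *abcc9*, *abcc13*, *abcg2b*, *abcg2d*, one ABCG4 gene (ENSDARG00000061047), *abcg5*, and *abcg8*. The last pair, which in mammals form the sterol exporter of liver and gut, are neighbouring genes in RefSeq's GRCz12tu assembly. A mean of at least 1 RPM over the 3 libraries was reached by 29 members, of which 8 were highest in the *gata2a*+ *runx1*+ library, 9 in the *gata2a*- *runx1*+ library, and 12 in the *gata2a*+ *runx1*- library, beside 31.1%, 31.6%, and 37.4% of all genes with that mean.

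**Figure D1:**
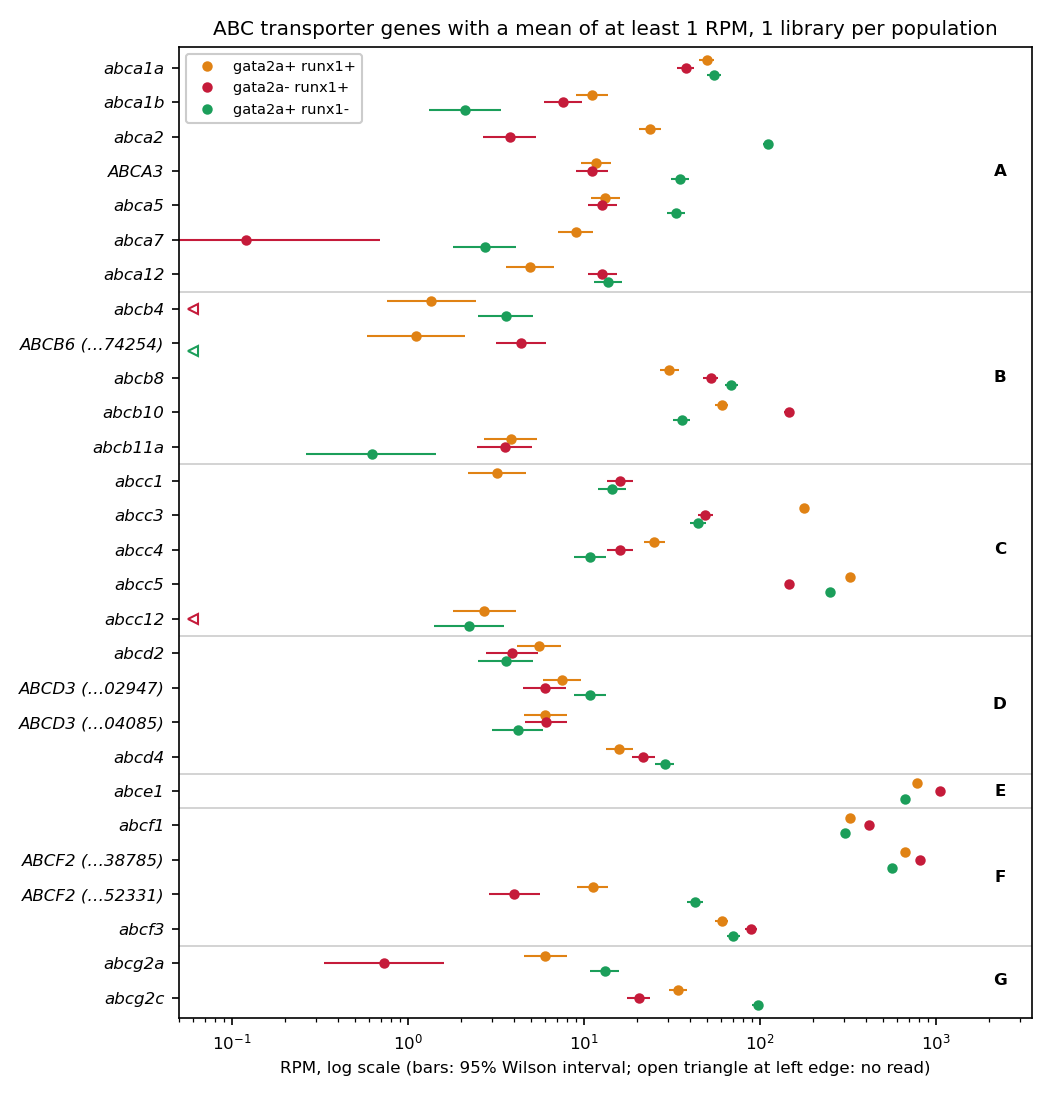
RPM on a log axis for 28 of the 29 ABC members with a mean of at least 1 RPM, grouped by subfamily A to G; each point is 1 library, bars are 95% Wilson intervals, and an open triangle marks a library without a read. Members of E and F other than the less read ABCF2 gene sit close together across libraries, while *abca2*, *abca7*, *abcg2a*, and ABCF2 (ENSDARG00000052331) spread over more than 1 labelled step of the axis.

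A member was called enriched in a population when its RPM was more than 2-fold that of every other library, one with 3 reads or fewer being taken at 3 reads. In the *gata2a*+ *runx1*+ library 2 of 29 members, or 6.9%, were enriched, beside 7.48% of all 12339 genes with the same mean. These were *abca7* and *abcc3*. In the *gata2a*- *runx1*+ library 2 members, or 6.9%, were enriched, beside 6.56% of all genes, and both were mitochondrial members of subfamily B, *abcb10* and ABCB6 (ENSDARG00000074254). In the *gata2a*+ *runx1*- library 7 members, or 24.1%, were enriched, beside 16.1% of all genes: *abca2*, ABCA3 (ENSDARG00000100524), *abca5*, *abcb4*, ABCF2 (ENSDARG00000052331), *abcg2a*, and *abcg2c*. All 11 of these had an adjusted p under 0.05 by Fisher's exact test on the reads against both other libraries. So did 93.7%, 95.7%, and 97.3% of all genes enriched in the respective libraries. The 11 members were called on the same reads that were tested, so the test is no separate check of their enrichment. At a limit of 3-fold, 2 of the 7 members in the *gata2a*+ *runx1*- library were left, *abca2* and ABCF2, and 1 of the 2 in the *gata2a*- *runx1*+ library, ABCB6. The share of all genes left at that limit is not given here, so these counts have no background beside them.

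In the opposite direction, *abca12* and *abcc1* were over 2-fold lower in the *gata2a*+ *runx1*+ library than in each other library, which is 6.9% of members beside 5.39% of all genes. In the *gata2a*- *runx1*+ library 6 members were lowest in this way, *abca2*, *abca7*, *abcb4*, *abcc12*, ABCF2 (ENSDARG00000052331), and *abcg2a*, or 20.7% beside 12.6% of all genes. In the *gata2a*+ *runx1*- library they were 3, *abca1b*, ABCB6, and *abcb11a*, or 10.3% beside 12.6%. A further 10 members, or 34.5%, stayed within 2-fold between all 3 libraries, beside 36.8% of all genes. The median difference in log2(RPM + 1) over the 29 members was 0.09 between the *gata2a*+ *runx1*+ and *gata2a*- *runx1*+ libraries, beside 0.07 over all genes, -0.02 between the *gata2a*+ *runx1*+ and *gata2a*+ *runx1*- libraries, beside 0.05, and -0.11 between the *gata2a*- *runx1*+ and *gata2a*+ *runx1*- libraries, beside -0.01. All 3 medians lay within 0.1 of those over all genes, while single members differed by up to 4.55 on this scale, *abca2* between the single positive libraries.

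**Figure D2:**
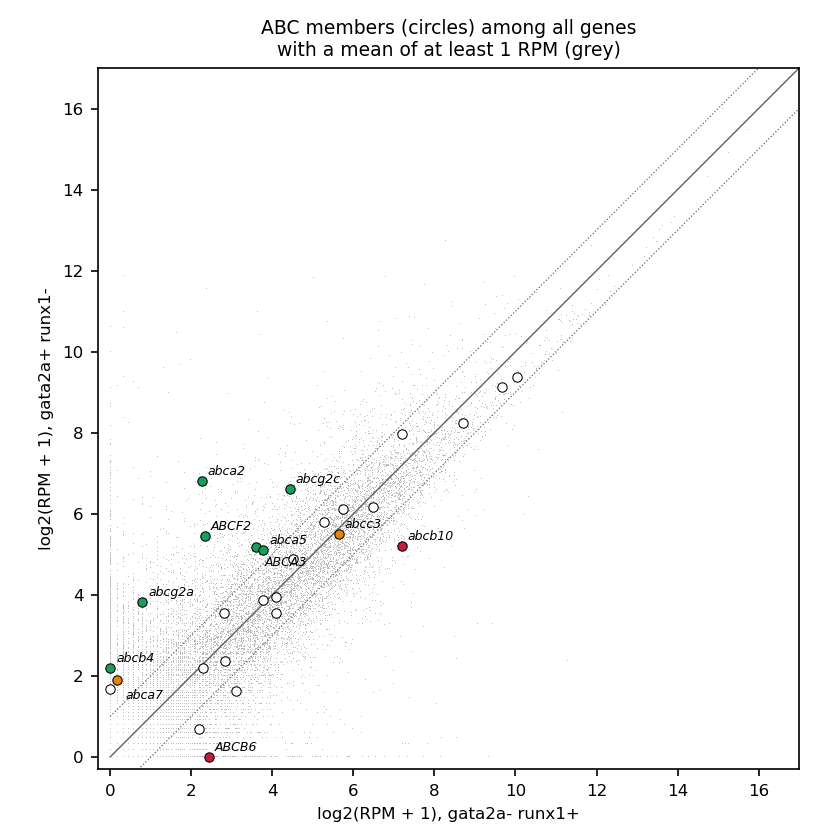
Log2(RPM + 1) in the *gata2a*- *runx1*+ library (horizontal) against the *gata2a*+ *runx1*- library (vertical) for 28 of the 29 ABC members (circles) and all genes averaging at least 1 RPM (grey points); circles are filled orange, red, or green by the library of enrichment, *gata2a*+ *runx1*+, *gata2a*- *runx1*+, or *gata2a*+ *runx1*-, and dotted lines mark a difference of 1 on the log2 scale. The member farthest from the diagonal is *abca2*, at 110.57 against 3.78 RPM, and the members enriched in the *gata2a*- *runx1*+ library, *abcb10* and ABCB6, lie below it.

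Among the mitochondrial members of subfamily B, *abcb10* and ABCB6 were enriched in the *gata2a*- *runx1*+ library, while *abcb8* had another order. The better read of the former was *abcb10*, whose mouse counterpart sits in the inner mitochondrial membrane of erythroid cells and steadies the iron importer mitoferrin. It was at 60.4 RPM (95% Wilson interval 55.3 to 66.0), 144.9 RPM (136.9 to 153.4), and 35.8 RPM (31.9 to 40.2). No 2 of these intervals overlapped. The level in the *gata2a*- *runx1*+ library was 2.40-fold that in the *gata2a*+ *runx1*+ library (95% interval 2.16 to 2.67, adjusted p = 6.94e-64 by Fisher's exact test on the reads) and 4.04-fold that in the *gata2a*+ *runx1*- library (3.55 to 4.61, adjusted p = 2.87e-125 by Fisher's exact test).

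ABCB6 (ENSDARG00000074254), named after a human transporter linked to porphyrin transport, had 9 reads in the *gata2a*+ *runx1*+ library, 36 in the *gata2a*- *runx1*+ library, and none in the *gata2a*+ *runx1*- library, or 1.11, 4.39, and 0 RPM. Unlike *abcb10* and *abcb8*, it was without a read in 1 of the libraries. Its level in the *gata2a*- *runx1*+ library was 3.96-fold (1.87 to 9.35) that in the *gata2a*+ *runx1*+ library and at least 11.8-fold higher than in the *gata2a*+ *runx1*- library, the latter against 3 reads. Fisher's exact test gave adjusted p-values of 0.000238 and 1.29e-10. The other ABCB6 gene had no read in any library.

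The gene *abcb8*, which in mouse heart takes part in mitochondrial iron export, was read in quantity in all 3 libraries, at 30.5, 52.3, and 68.7 RPM. The *gata2a*+ *runx1*- library was 2.25-fold (1.93 to 2.62) above *gata2a*+ *runx1*+ and 1.31-fold (1.16 to 1.49) above *gata2a*- *runx1*+. These mitochondrial members thus did not follow 1 pattern: *abcb10* and ABCB6 were more than 2-fold apart between the *gata2a*- *runx1*+ library and both others, and *abcb8* was highest in another population.

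**Figure D3:**
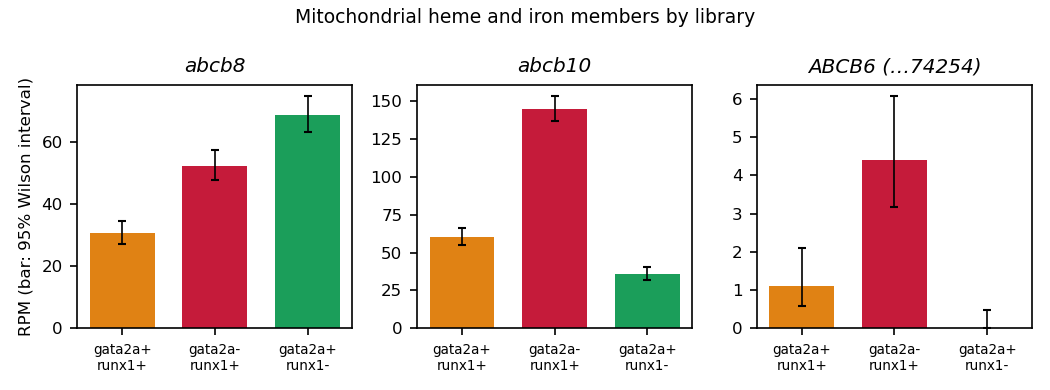
RPM of the mitochondrial ABC members *abcb8*, *abcb10*, and ABCB6, with a separate vertical axis from 0 for each gene; bars are 1 library each and lines are 95% Wilson intervals. The *gata2a*- *runx1*+ library is highest for *abcb10* and ABCB6, while *abcb8* is highest at 68.7 RPM in the *gata2a*+ *runx1*- library.

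The genes these transporters work beside were compared from a list of 20 genes of mitochondrial heme and iron handling, of which 14 had a mean of at least 1 RPM. In the *gata2a*- *runx1*+ library 5 of the 14 were enriched, beside 6.56% of all genes, and none was in the other libraries, beside 7.48% and 16.1%. Among them were GLRX5, a glutaredoxin of iron-sulfur assembly, at 29.3, 100.9, and 10.2 RPM, PPOX, a heme synthesis enzyme, at 6.28, 27.1, and 2.84 RPM, SLC25A38 (ENSDARG00000074533), a glycine importer, at 29.2, 67.6, and 19.4 RPM, and FECH, ferrochelatase, at 2.59, 6.46, and 0 RPM. Over 2-fold lower in the *gata2a*+ *runx1*- library than in each other were 4 of the 14, beside 12.6% of all genes. These were GLRX5, PPOX, FECH, and SLC25A28, a second mitoferrin. In the *gata2a*+ *runx1*+ library TMEM14C and *hscb* were lowest in this way, 2 of the 14 beside 5.39% of all genes. The mitoferrin gene SLC25A37, whose mouse protein binds ABCB10, had 10 reads in the *gata2a*- *runx1*+ library and none in the others. The other SLC25A38 gene (ENSDARG00000059805) had 13 reads in the *gata2a*+ *runx1*- library and none in the others. The erythroid enzyme gene *alas2* had no read in any library. The erythroid marker list was also highest in the *gata2a*- *runx1*+ library, at the summed levels given above. So was the thrombocyte list without FLI1, at 182, 693, and 396 RPM, whereas with FLI1 it summed to 1672, 1213, and 456 RPM. Its genes *mpl* and NFE2 had other orders, at 5.91, 2.92, and 0.25 RPM for *mpl* and at 113.5, 53.6, and 366.7 RPM for NFE2. With EPX the neutrophil list was also highest in the *gata2a*- *runx1*+ library, but without EPX it was highest in the *gata2a*+ *runx1*+ library. The part of these lists in the levels of *abcb10* and ABCB6 was not tested.

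Subfamily A, whose members move lipids, was highest in the *gata2a*+ *runx1*- library, with a summed level of 123 RPM, 86.3 RPM, and 252.6 RPM. The member behind most of the difference was *abca2*, which in mammals lies in endosomes and lysosomes and acts on sterol handling. It was at 23.6 RPM (20.5 to 27.2), 3.78 RPM (2.66 to 5.36), and 110.6 RPM (103.6 to 118.1). The level in the *gata2a*+ *runx1*- library was 4.68-fold (3.999 to 5.50) that in the *gata2a*+ *runx1*+ library and 29.3-fold (20.5 to 43.3) that in the *gata2a*- *runx1*+ library, with adjusted p-values of 5.82e-108 and 1.85e-222 by Fisher's exact test. Its 3 libraries were each apart, since the *gata2a*+ *runx1*+ level was also 6.26-fold (4.27 to 9.46) above the *gata2a*- *runx1*+ level.

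A pair of further A members shared the order of the *gata2a*+ *runx1*- library first but did not separate the *runx1*+ populations. For ABCA3, the surfactant lipid transporter of lamellar bodies in mammalian lung, the levels were 11.7, 11.1, and 35.0 RPM. For *abca5*, a late endosomal and lysosomal member in mammals, they were 13.2, 12.7, and 33.4 RPM. The *gata2a*+ *runx1*- level was 2.99-fold (2.36 to 3.81) that of the *gata2a*+ *runx1*+ library for ABCA3 and 2.53-fold (2.02 to 3.20) for *abca5*, whereas the *gata2a*+ *runx1*+ and *gata2a*- *runx1*+ libraries differed by 1.05-fold (0.783 to 1.42) and 1.04-fold (0.786 to 1.37), intervals that include 1. The lysosomal members *abca2*, *abca5*, and *abcd4* were all highest in the *gata2a*+ *runx1*- library, and with *abcb9*, which had no read, summed to 52.7, 38.1, and 172.6 RPM.

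Another order was seen for *abca7*, which in mammals takes part in phospholipid efflux and phagocytosis. It had 73 reads in the *gata2a*+ *runx1*+ library, 1 in the *gata2a*- *runx1*+ library, and 22 in the *gata2a*+ *runx1*- library, or 8.99, 0.12, and 2.72 RPM. The *gata2a*+ *runx1*+ level was 3.31-fold (2.03 to 5.59) that of the *gata2a*+ *runx1*- library and 73.7-fold that of the *gata2a*- *runx1*+ library, with a counting interval of 12.8 to 2952 because the latter rests on 1 read. Adjusted p-values were 5.61e-07 and 3.57e-20 by Fisher's exact test. The ceramide transporter gene *abca12*, known from mammalian skin, was lowest where *abca7* was highest, with 4.92 RPM in the *gata2a*+ *runx1*+ library and 12.7 and 13.7 RPM in the *gata2a*- *runx1*+ and *gata2a*+ *runx1*- libraries.

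The cholesterol exporter ABCA1 has 2 zebrafish genes, and they differed in how they were divided among the libraries. The more read copy, *abca1a*, was at 49.7, 37.7, and 54.7 RPM, and stayed within 1.45-fold (1.25 to 1.69 between the *gata2a*+ *runx1*- and *gata2a*- *runx1*+ libraries). The other, *abca1b*, was at 11.1 RPM (9.01 to 13.6), 7.56 RPM (5.89 to 9.68), and 2.1 RPM (1.31 to 3.36), and was thus 5.28-fold (3.12 to 9.45) higher in the *gata2a*+ *runx1*+ than in the *gata2a*+ *runx1*- library. As a share of the reads on both copies, *abca1b* made up 18.2% in the *gata2a*+ *runx1*+ library (95% Wilson interval 15.1% to 21.9%), 16.7% (13.3% to 20.8%) in the *gata2a*- *runx1*+ library, and 3.70% (2.32% to 5.84%) in the *gata2a*+ *runx1*- library. How reads that match both copies were assigned is not given in the sources used here, and this holds for each pair of copies below.

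Outside the mitochondrial group, subfamily B was read at low levels. The gene *abcb4*, which in zebrafish embryos pumps out drugs as mammalian ABCB1 does, had 11 reads in the *gata2a*+ *runx1*+ library, none in the *gata2a*- *runx1*+ library, and 29 in the *gata2a*+ *runx1*- library, or 1.35, 0, and 3.58 RPM. It was 2.65-fold (1.28 to 5.87) higher in the *gata2a*+ *runx1*- than in the *gata2a*+ *runx1*+ library and at least 9.80-fold higher than in the *gata2a*- *runx1*+ library, against 3 reads, with adjusted p-values of 0.00938 and 5.91e-09 by Fisher's exact test. The bile salt exporter gene *abcb11a*, known from liver, was at 3.82 and 3.53 RPM in the *gata2a*+ *runx1*+ and *gata2a*- *runx1*+ libraries and at 0.62 RPM, or 5 reads, in the *gata2a*+ *runx1*- library. Its companion ABCB11 (ENSDARG00000070078) had 6, 2, and 4 reads.

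Subfamily C, the multidrug resistance proteins and their relatives, was highest in the *gata2a*+ *runx1*+ library, with a summed level of 535 RPM, 230 RPM, and 325 RPM. Most of each sum came from *abcc5* and *abcc3*. Without *abcc5* the sums were 210.5, 83.6, and 74.6 RPM, and most of these came from *abcc3*. The member enriched in the *gata2a*+ *runx1*+ library was *abcc3*, in mammals an exporter of glucuronides and bile salts. It was at 177.1 RPM (168.2 to 186.5), 48.8 RPM (44.2 to 53.8), and 44.2 RPM (39.9 to 49.1). The *gata2a*+ *runx1*+ level was 3.63-fold (3.25 to 4.07) and 4.01-fold (3.56 to 4.51) that of the others, with adjusted p-values of 6.97e-138 and 8.85e-151 by Fisher's exact test, while the other libraries differed by 1.102-fold with an interval of 0.953 to 1.27.

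The most read member of subfamily C was *abcc5*, which exports cyclic nucleotides and has been described as a heme exporter in worm, zebrafish, and mouse. It was at 324.7 RPM (312.6 to 337.4), 146.4 RPM (138.3 to 154.9), and 250.2 RPM (239.5 to 261.3). The *gata2a*+ *runx1*+ level was 2.22-fold (2.07 to 2.38) that of the *gata2a*- *runx1*+ library but 1.30-fold (1.22 to 1.38) that of the *gata2a*+ *runx1*- library, so it was not called enriched. Thus *abcc5* was lowest in the library in which *abcb10* was highest. The related *abcc4*, a nucleotide transporter of mammalian platelets, had the order 25.0, 15.96, and 10.8 RPM.

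The pattern of *abcc1*, the exporter of glutathione conjugates and leukotrienes, was lowest in the library in which *abcc3* was highest. It was at 3.20 RPM (2.18 to 4.69), 15.96 RPM (13.5 to 18.9), and 14.5 RPM (12.1 to 17.3). The *gata2a*+ *runx1*+ library was 4.99-fold (3.26 to 7.92) below *gata2a*- *runx1*+ and 4.52-fold (2.93 to 7.20) below *gata2a*+ *runx1*-, and the single positive libraries differed by 1.104-fold, with an interval of 0.854 to 1.43. For *abcc12* there were 22 reads in the *gata2a*+ *runx1*+ library, none in the *gata2a*- *runx1*+ library, and 18 in the *gata2a*+ *runx1*- library. In the list of glutathione genes that serve these exporters, 3 of the 7 genes that averaged 1 RPM or more were enriched in the *gata2a*+ *runx1*- library, beside 16.1% of all genes, and these were GSR, GSS, and MGST1 (ENSDARG00000022165). None was enriched in the *runx1*+ libraries. The glutathione synthesis genes GCLC and GCLM were lowest in the *gata2a*+ *runx1*- and in the *gata2a*+ *runx1*+ library, at 135.7, 129.8, and 52.0 RPM for GCLC and at 28.7, 63.9, and 63.0 RPM for GCLM.

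Subfamily D, the fatty acid transporters of the peroxisome together with a lysosomal cobalamin transporter, had no enriched and no lowest member among the 4 with a mean of at least 1 RPM. Its most read member was *abcd4*, the cobalamin transporter, at 15.9, 21.7, and 28.7 RPM, of which *gata2a*+ *runx1*- was 1.80-fold (1.45 to 2.26) above *gata2a*+ *runx1*+. The peroxisomal members *abcd2*, ABCD3 (ENSDARG00000002947), and ABCD3 (ENSDARG00000104085) lay between 3.58 and 10.8 RPM. Of their 9 comparisons between 2 libraries, only ABCD3 (ENSDARG00000002947) between the *gata2a*+ *runx1*- and *gata2a*- *runx1*+ libraries had an adjusted p under 0.05 by Fisher's exact test, at 1.80-fold (1.25 to 2.61). Of 11 peroxisome genes averaging at least 1 RPM, 1 was enriched, PEX16 in the *gata2a*+ *runx1*- library, beside 16.1% of all genes there. Over 2-fold lower in 1 library than in each other were 3 of the 11. These were PEX16 in the *gata2a*- *runx1*+ library and PEX14 and ACOX3 in the *gata2a*+ *runx1*- library, beside 12.6% of all genes in each.

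The members of subfamilies E and F, which act in translation, together gave 65.4% of all ABC reads in the *gata2a*+ *runx1*+ library, 75.5% in the *gata2a*- *runx1*+ library, and 62.4% in the *gata2a*+ *runx1*- library. The single E member, *abce1*, splits ribosomes after termination and was at 777 RPM (758 to 797), 1055 RPM (1033 to 1078), and 664 RPM (646 to 682). The *gata2a*- *runx1*+ level was 1.36-fold (1.31 to 1.40) that of the *gata2a*+ *runx1*+ library and 1.59-fold (1.54 to 1.65) that of the *gata2a*+ *runx1*- library. The same order, with *gata2a*- *runx1*+ highest, was seen for *abcf1*, which promotes initiation, at 324, 416, and 302 RPM, and for ABCF2 (ENSDARG00000038785) at 665, 812, and 563 RPM. Also *abcf3* was highest in the *gata2a*- *runx1*+ library, at 60.3, 88.7, and 70.4 RPM. All 4 stayed within 2-fold between libraries.

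The second ABCF2 gene (ENSDARG00000052331) behaved unlike the first. It was at 11.2 RPM (9.12 to 13.8), 4.02 RPM (2.86 to 5.65), and 42.7 RPM (38.5 to 47.5). The *gata2a*+ *runx1*- level was 3.82-fold (3.02 to 4.86) that of the *gata2a*+ *runx1*+ library and 10.6-fold (7.43 to 15.7) that of the *gata2a*- *runx1*+ library, with adjusted p-values of 3.28e-35 and 9.82e-67 by Fisher's exact test. Its share of the reads on both ABCF2 genes was 1.66% (95% Wilson interval 1.35% to 2.03%), 0.493% (0.351% to 0.691%), and 7.06% (6.37% to 7.81%). Of 10 genes of ribosome recycling and initiation that averaged 1 RPM or more, 7 were highest in the *gata2a*- *runx1*+ library. The share of all genes with that mean was 31.6%. Only PELO, which recognises stalled ribosomes, was enriched, at 38.8, 41.7, and 93.3 RPM with *gata2a*+ *runx1*- highest. Of all genes, 16.1% were enriched in that library.

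**Figure D4:**
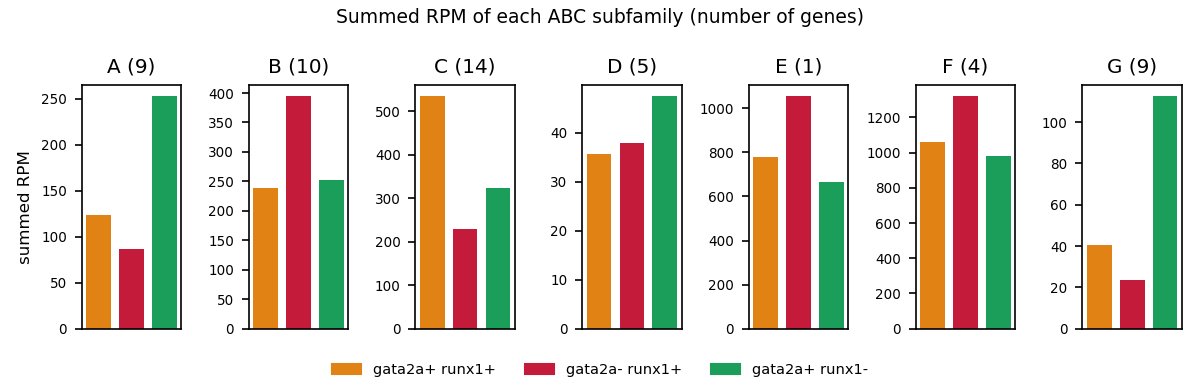
Summed RPM of each ABC subfamily in the *gata2a*+ *runx1*+ (orange), *gata2a*- *runx1*+ (red), and *gata2a*+ *runx1*- (green) libraries, with a separate axis from 0 for each subfamily and the number of genes in brackets. Subfamilies A and G are highest in the *gata2a*+ *runx1*- library, C in the *gata2a*+ *runx1*+ library, and B, E, and F in the *gata2a*- *runx1*+ library.

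Subfamily G holds the side population transporter and the sterol exporters, and it was highest in the *gata2a*+ *runx1*- library, with a summed level of 40.5 RPM, 23.4 RPM, and 112.5 RPM. Of the 4 zebrafish ABCG2 genes, *abcg2b* and *abcg2d* had no read. The most read was *abcg2c*, at 34.2 RPM (30.4 to 38.5), 20.5 RPM (17.6 to 23.8), and 96.9 RPM (90.3 to 103.9). It was 2.83-fold (2.47 to 3.26) higher in the *gata2a*+ *runx1*- than in the *gata2a*+ *runx1*+ library and 4.73-fold (3.9997 to 5.62) higher than in the *gata2a*- *runx1*+ library, with adjusted p-values of 1.9e-55 and 2.43e-96 by Fisher's exact test.

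The gene *abcg2a*, another zebrafish counterpart of the mammalian side population transporter, had the same order of libraries. It had 49 reads in the *gata2a*+ *runx1*+ library, 6 in the *gata2a*- *runx1*+ library, and 106 in the *gata2a*+ *runx1*- library, or 6.03 RPM (4.56 to 7.97), 0.73 RPM (0.335 to 1.595), and 13.1 RPM (10.8 to 15.8). The *gata2a*+ *runx1*+ level was 8.25-fold (3.53 to 23.6) that of the *gata2a*- *runx1*+ library, and the *gata2a*+ *runx1*- level was 2.17-fold (1.53 to 3.11) that of the *gata2a*+ *runx1*+ library and 17.9-fold (7.96 to 49.9) that of the *gata2a*- *runx1*+ library. Fisher's exact test gave adjusted p-values of 5.43e-09, 1.26e-05, and 2.28e-24. Both expressed ABCG2 genes were thus higher in the *gata2a*+ libraries than in the *gata2a*- *runx1*+ library, and *abcg2a* took 15.0% of the ABCG2 reads in the *gata2a*+ *runx1*+ library, 3.45% in the *gata2a*- *runx1*+ library, and 11.9% in the *gata2a*+ *runx1*- library. Also highest in the *gata2a*+ *runx1*- library were the B cell and macrophage lists and the endothelial list without FLI1, at the levels given above. The list of T and NK cell markers was highest there too, at a summed 3.45, 0.853, and 19.5 RPM. Only 1, 1, and 3 of its 6 genes had over 3 reads. Without ZAP70, its most read gene, it summed to 0, 0.609, and 3.83 RPM. The part of these lists in the levels of *abca2*, ABCA3, *abca5*, *abcb4*, ABCF2, *abcg2a*, and *abcg2c* there was not tested.

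Restriction to 1 library, taken as over 3 reads in that library and 3 or fewer in each other, was found for 11 members, and all of them were scarcely read, with 4 to 21 reads. They made up 26.2% of the 42 members with over 3 reads in any library, beside 21.3% of all genes. By population, 2 members were restricted to the *gata2a*+ *runx1*+ library, or 4.76% beside 6.82% of all genes, 4 to the *gata2a*- *runx1*+ library, or 9.52% beside 4.71%, and 5 to the *gata2a*+ *runx1*- library, or 11.9% beside 9.79%. With limits of 1 read and of 9 reads in place of 3, the count was 6 and 5. No mitochondrial member was among them.

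In the *gata2a*+ *runx1*- library the restricted member with the most reads was *abcg1*, the mammalian exporter of cholesterol to high-density lipoprotein, with 21 reads there and none in the others. This was 2.59 RPM (1.70 to 3.97), at least 7.03-fold higher than in the *gata2a*+ *runx1*+ library and at least 7.10-fold higher than in the *gata2a*- *runx1*+ library, against 3 reads, with adjusted p-values of 1.66e-06 and 1.34e-06 by Fisher's exact test. ABCC8 (ENSDARG00000051879), named after the sulphonylurea receptor of the pancreatic potassium channel, had 1, 1, and 11 reads. The other ABCC8 gene (ENSDARG00000077007) was the opposite, with 6, 7, and 0 reads. Against the *gata2a*+ *runx1*- library, Fisher's exact test gave adjusted p-values of 0.0578 for *gata2a*+ *runx1*+ and 0.0296 for *gata2a*- *runx1*+. The remaining members restricted to the *gata2a*+ *runx1*- library were *abcc6b.1* with 3, 2, and 7 reads, *abcc2* with 0, 1, and 5, and ABCA4 (ENSDARG00000057169) with 0, 0, and 4, and none of these 3 had an adjusted p under 0.05 by Fisher's exact test.

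In the *gata2a*- *runx1*+ library ABCG4 (ENSDARG00000078068), named after a sterol exporter that in mouse is found in megakaryocyte progenitors, had 2, 18, and 0 reads. Its level in the *gata2a*- *runx1*+ library was 8.91-fold (2.13 to 79.2) that of the *gata2a*+ *runx1*+ library and at least 5.92-fold higher than in the *gata2a*+ *runx1*- library, with adjusted p-values of 0.00128 and 2.23e-05 by Fisher's exact test. The gene *abcc6a*, whose human counterpart is mutated in pseudoxanthoma elasticum, had 3, 13, and 1 reads, with adjusted p-values of 0.0464 and 0.00408 by Fisher's exact test. The photoreceptor transporter ABCA4 (ENSDARG00000062661) had 1, 6, and 0 reads, and *abcb5* had 2, 5, and 2 reads, which Fisher's exact test did not separate. In the *gata2a*+ *runx1*+ library *abcc10* had 7 reads and none elsewhere, with adjusted p-values of 0.0184 and 0.0309 by Fisher's exact test. In all, 5 of the 11 restricted members, *abcg1*, ABCC8, ABCG4, *abcc6a*, and *abcc10*, had an adjusted p under 0.05 against both other libraries. These members were chosen on the same reads that were tested, so the test is no separate check of their restriction. The share of all restricted genes that pass it is not given here.

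**Figure D5:**
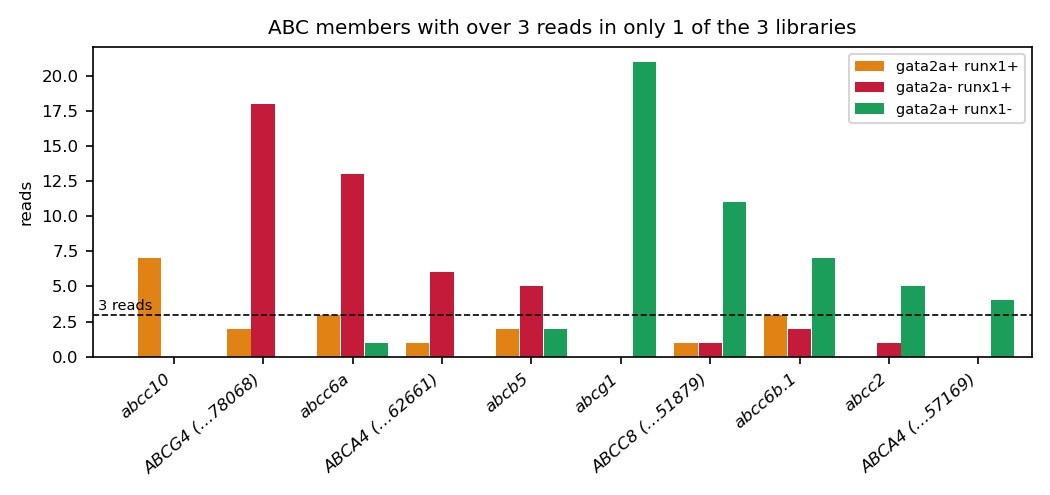
Reads of 10 of the 11 ABC members with over 3 reads in only 1 of the 3 libraries; bars are 1 library each, and the dashed line marks 3 reads. The tallest bars are *abcg1* with 21 reads in the *gata2a*+ *runx1*- library and ABCG4 with 18 reads in the *gata2a*- *runx1*+ library.

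Other ABC genes carry symbols outside the rule and are given beside the members. The zebrafish gene *abch1*, of a subfamily that mammals lack, had 0, 2, and 31 reads and was enriched in the *gata2a*+ *runx1*- library. The antigen peptide transporter gene TAP1 was at 16.5, 10.1, and 30.0 RPM, and *tap2a* was at 9.23, 1.58, and 6.18 RPM and lowest in the *gata2a*- *runx1*+ library. Another peptide transporter gene, *tap2t*, was at 30.7, 31.3, and 19.9 RPM, and CFTR, a chloride channel, had no read.

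Sterol handling genes were set beside ABCA1 and ABCG1 in a list of which 10 had a mean of at least 1 RPM. NR1H3, the liver X receptor that induces both exporters in mammals, was at 60.1, 50.2, and 42.0 RPM and was not called. RXRA (ENSDARG00000057737), its partner receptor, was enriched in the *gata2a*+ *runx1*+ library at 4.80, 0.97, and 0.25 RPM. MYLIP (ENSDARG00000055118), which degrades the low-density lipoprotein receptor, was enriched in the *gata2a*+ *runx1*- library at 0, 1.22, and 32.1 RPM. Each was 1 of the 10 genes, beside 7.48% and 16.1% of all genes in the respective libraries. The more read MYLIP gene (ENSDARG00000008859) had the opposite order, at 44.8, 34.7, and 24.95 RPM, and was not called. Of the acceptor apolipoprotein genes *apoa1a*, *apoa1b*, and *apoeb*, only *apoeb* was read, with 9 reads in the *gata2a*+ *runx1*+ library.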

How the data were processed

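RNA-seq was analysed in 3 sorted populations with 1 library each. The authors amplified poly-A RNA by Quartz-Seq, without molecular identifiers, made libraries by Nextera XT, used HISAT2 2.1.0 for mapping on GRCz11, and obtained RPM per gene from Subread 1.6.4. The deposited RPM have 2 decimals, and 100% of the values above 0 lay within 0.005 RPM, the rounding of the deposited values, of a whole number of reads. Annotation release and strand use are not given in the sources used here, so overlapping and antisense genes cannot be told apart. Amplification bias is carried in every value. Reads copied from the same molecule are counted separately, so intervals can be too narrow and p-values too small even within these libraries.

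Symbols were paired with 28988 of the 32057 identifiers. Members sharing a human symbol are named with their identifier. Members and lists were chosen with earlier results of these data known. Some genes that these rules and lists give are not reported here. Named were enriched and restricted members, the most read of each subfamily, and a fixed set including the mitochondrial members and *abcg2a*. Others were given by counts, or named after their values were seen. Lists of partner genes were described by counts.

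Levels carry 95% Wilson intervals, and ratios exact conditional intervals. For pairs of libraries, Fisher's exact test (two-sided, scipy 1.17.1) was run on the reads and adjusted by Benjamini-Hochberg over every gene with a read in either, which compares libraries and not populations. Alternatives were fold limits of 1.5 and 3, mean RPM minimums of 0 and 5, pseudocounts of 0.5 and 2, floors of 1 and 9 reads, edgeR 4.0.16 TMM and DESeq2 1.42.0 size factors on the recovered reads, and removal of the 20 most abundant genes of each library. The steps were tested on simulated data that held counting error alone. For the calls, only well-read genes were scored there, and the changed ones differed by more than the 2-fold limit. Calls of scarcely read members were therefore not covered.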

Additional observations from a re-analysis of the deposited data

How the results depend on the processing

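No paired analysis was possible because each population has 1 library, and for the same reason no library could be left out. With a mean of at least 5 RPM, enriched members numbered 1 in the *gata2a*+ *runx1*+ library and 1 in the *gata2a*- *runx1*+ library. Without a minimum mean, 4 were enriched in the *gata2a*- *runx1*+ library, and with a limit of 3-fold, 1 in the *gata2a*- *runx1*+ library and 2 in the *gata2a*+ *runx1*- library; the other counts of enriched members stayed within 1.5 times of those reported. The median log2 difference between the *gata2a*+ *runx1*+ and *gata2a*+ *runx1*- libraries was -0.22 with a mean of at least 5 RPM, -0.13 with DESeq2 size factors, and 0.0080 without the 20 most abundant genes, where its sign changed. Between the *gata2a*- *runx1*+ and *gata2a*+ *runx1*- libraries it was 0 without a minimum mean. For the former pair, the median over all genes shifted by -0.0875 with DESeq2 size factors and by 0.0313 without the most abundant genes. The causes were not tested. Members over the floor in only 1 library were 6 with a floor of 1 read and 5 with a floor of 9 reads. Shares of all genes are not given for any of these counts of members. Ratios of the 32 members that the naming rule gives were recomputed under TMM scaling, DESeq2 size factors, and without the most abundant genes. Of 207 such ratios, 196 stayed within their counting interval, but some of these crossed 1. Between the *gata2a*+ *runx1*+ and *gata2a*- *runx1*+ libraries, TMM scaling took ABCA3 from 1.05 to 0.995 and *abca5* from 1.04 to 0.981. The other 11 ratios left their counting interval, and 0 of them changed direction. They belonged to *abcc5*, *abce1*, and ABCF2 (ENSDARG00000038785), whose many reads make that interval narrow. Depth limits the members under about 10 reads, for which neither presence nor absence in a library is firm.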
